A study of Homo sapiens with 24 samples.

Results

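NF-κB genes and a set of inflammatory targets were followed in RNA-seq of Nalm6 cells, a human line of B-cell precursor acute lymphoblastic leukemia (B-ALL). The set was 10 named genes: the inhibitors NFKBIA, NFKBIE and TNFAIP3, the subunits NFKB1, NFKB2 and RELB, and the targets IL1B, LTB, CD69 and BIRC3. Rows of the deposited count table were taken wherever their RefSeq identifier maps to one of these symbols. Of the 64519 identifiers in the table, 19 belonged to 9 of the 10 genes, and the level of LTB, which encodes lymphotoxin beta, is not analysed here. Only 6 identifiers, 1 each of NFKBIA, NFKBIE, RELB, IL1B, CD69 and BIRC3, passed the filter of more than 1 CPM (reads scaled to the library total) in at least 2 libraries.

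NF-κB is a family of dimeric transcription factors that IκB proteins hold in the cytoplasm. Signals from cytokine, antigen and innate receptors activate the IκB kinase, the IκB protein is degraded, and the freed dimers switch on inflammatory, survival and feedback genes. Among the feedback genes is NFKBIA itself, which encodes IκBα. The glucocorticoid receptor (GR), which binds the synthetic hormone dexamethasone (dex), is known both to induce NFKBIA and to repress many NF-κB targets, and glucocorticoids are used to kill leukemic lymphoblasts.

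The 24 libraries came from cells expressing shRNA against G9a (shG9a), GLP (shGLP), HP1γ (shHP1γ) or a non-specific sequence (shNS), each treated with 100 nM dex or with the vehicle ethanol for 8 h. G9a and GLP are the lysine methyltransferases encoded by EHMT2 and EHMT1, and HP1γ, encoded by CBX3, binds methylated lysine; all were studied as coregulators of GR. Each of the 8 conditions had 3 biological replicates made on different days, and every group, shNS included, carries an shRNA. All libraries come from a single cell line, so the results describe that line, and in bulk RNA fewer cells expressing a gene and less RNA per cell cannot be told apart.

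Library totals ran from 9289533 to 14387770 counts, with a median of 11132064.5. The counted accession of EHMT1, NM_001354259, stood at 1.66 to 3.21 normalized CPM in the 6 shGLP libraries and at 2.67 to 4.6 in the 6 shNS libraries, and its differences of -0.37 in dex and -0.65 in ethanol (log2, shGLP against shNS) did not pass the test (adjusted p = 0.41 and 0.0923, edgeR). For CBX3, accession NM_016587 stood at 1.59 to 3.39 normalized CPM in shHP1γ cells and at 3.23 to 4.25 in shNS cells, and accession NM_007276 at 2.35 to 3.1 and 2.76 to 3.74, again with no difference past the test. The EHMT1 accession held only 18 to 34 reads per library in shGLP cells, and NM_016587 of CBX3 18 to 38 in shHP1γ cells. With so few reads, these tests cannot decide how far either gene was depleted. In the paper, immunoblots and RT-qPCR showed efficient depletion of each targeted protein and its mRNA. EHMT2 is not analysed here. For the hormone, all 5 tested accessions of the dex-induced genes TSC22D3, FKBP5 and PER1 rose in shNS cells. Of 10 markers of B-cell precursors, VPREB3, MME and CD79A had a median above 1 normalized CPM, while CD79B, DNTT and CD22 were at 0 in every library. The T cell, erythroid and epithelial markers summed to at most 0.271, 0.513 and 0.0849 normalized CPM in any library. Replicate 1 of the shHP1γ cells, in both treatments, and dex-treated shG9a replicate 2 stood farthest from their fellow replicates, with a chi-squared per degree of freedom of up to 36.164 against a median of 8.13.

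The table counts reads on RefSeq identifiers, and the number of identifiers a gene has went together with how many reads it was given. In the whole table, 73.7% of the identifiers of genes with a single identifier held a count and 39.2% were tested, against 26.1% and 8.3% of those of genes with several. NFKBIA, NFKBIE, RELB, IL1B and CD69 have a single identifier and all 5 were tested. BIRC3, NFKB1, NFKB2 and TNFAIP3 have 14 between them, of which 9 were at 0 in every library. For NFKB1, which encodes p105 and its product p50, NM_001319226 held 0 to 7 reads per library, and NM_003998 and NM_001165412 held none. For NFKB2, which encodes p100 and p52, no library had more than 2 reads on any of 6 identifiers. TNFAIP3 encodes A20, an enzyme that edits ubiquitin and shuts the pathway off, and its NM_001270508 held 0 to 8 reads and the other identifiers none. The plot of reads per accession shows this split. How the counting treated reads shared between identifiers is not given in the sources used here, so for these 3 genes a low count cannot be read as a low level, and no comparison was made.

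**Figure D1:**
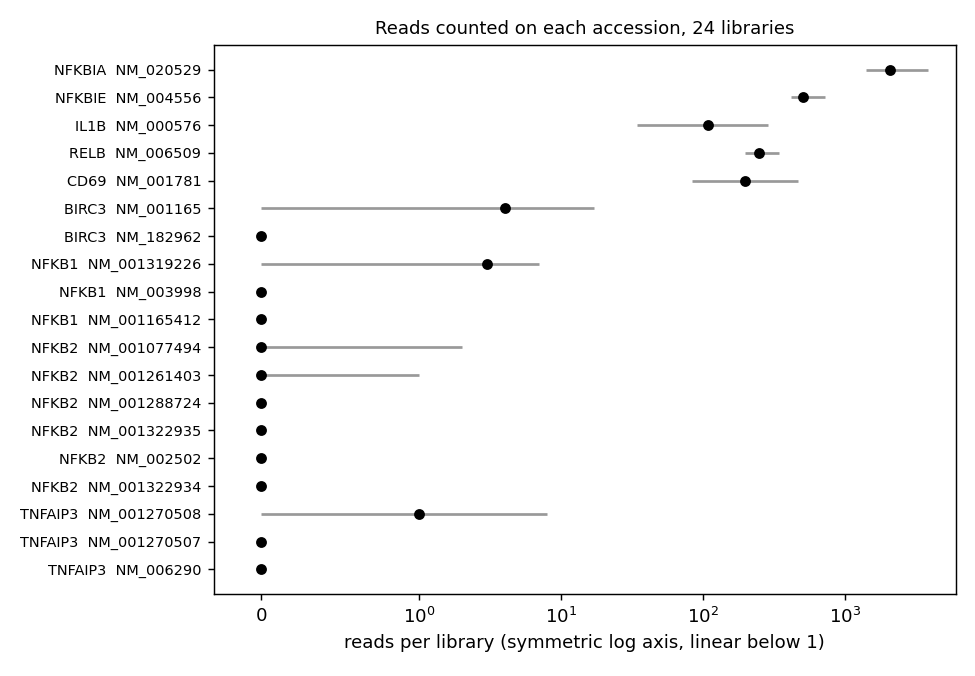
Reads counted on each of the 19 identifiers, on a symmetric log axis that is linear below 1. Points are medians and lines run from the lowest to the highest of 24 libraries; the 5 genes with a single identifier have between 34 and 3848 reads, and no identifier of NFKB1, NFKB2 or TNFAIP3 has more than 8.

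On GRCh37, the build used for mapping, the tested genes lie at chr14:35870285-35873955 (NFKBIA, reverse strand), chr6:44225903-44233525 (NFKBIE, reverse), chr19:45504719-45541450 (RELB, forward), chr2:113587328-113594393 (IL1B, reverse), chr12:9905082-9913497 (CD69, reverse) and chr11:102188215-102210134 (BIRC3, forward). Promoter windows from RefSeq, on the newer build GRCh38.p14, were found for 7 of the 10 genes in 11 windows of 300 bases that run from 250 before to 50 after the transcript start. Entries for NFKBIE, RELB and CD69 were not matched. The windows were searched on both strands for the κB consensus, the site that NF-κB dimers bind, and for the glucocorticoid response element written as GNACA and TGTNC 3 bases apart. The κB consensus was found in 8 of the 11 windows, those of 6 genes, with the same LTB promoter counted in 2 windows that start 1 base apart, and in 11.3% of 35116 windows of all genes. The response element was found in 0 of the 11 windows and in 0.39% of all. A match is a string of letters and not a measured binding site. The 250 bases before the start are shown, 5′ to 3′, for the 3 genes that rose or fell with dex in shNS cells and have a window, with κB matches in capitals.
NFKBIA, chr14:35404750-35404999, reverse strand: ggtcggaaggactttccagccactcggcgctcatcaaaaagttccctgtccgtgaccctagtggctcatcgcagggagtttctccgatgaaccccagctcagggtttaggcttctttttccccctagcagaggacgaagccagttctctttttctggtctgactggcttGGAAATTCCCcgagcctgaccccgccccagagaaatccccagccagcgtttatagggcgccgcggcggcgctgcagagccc
BIRC3, chr11:102317234-102317483, forward strand: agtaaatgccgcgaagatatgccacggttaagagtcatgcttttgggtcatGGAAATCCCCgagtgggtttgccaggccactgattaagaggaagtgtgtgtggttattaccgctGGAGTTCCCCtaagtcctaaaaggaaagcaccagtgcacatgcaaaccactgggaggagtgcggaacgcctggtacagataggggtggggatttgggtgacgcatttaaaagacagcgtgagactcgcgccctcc
IL1B, chr2:112836780-112837029, reverse strand: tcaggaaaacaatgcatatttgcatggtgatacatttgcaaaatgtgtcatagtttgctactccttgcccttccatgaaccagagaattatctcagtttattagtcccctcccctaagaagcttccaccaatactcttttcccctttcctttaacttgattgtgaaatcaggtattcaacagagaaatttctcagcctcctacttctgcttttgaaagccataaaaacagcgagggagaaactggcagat
The match in NFKBIA covers positions -81 to -72 from the transcript start. BIRC3 has 2 matches, at -199 to -190 and at -135 to -126. The IL1B window has none.

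The first comparison asked how dex changed these genes in shNS cells. NFKBIA and CD69 rose, IL1B fell, and RELB and NFKBIE did not pass the test. BIRC3 was also called higher, but it entered the test only through dex-treated libraries, so its call is kept apart. By edgeR's quasi-likelihood F test, with Benjamini-Hochberg adjusted p values over 10167 transcripts and a limit of 0.05, 3 of the 5 tested members other than BIRC3 were called, 2 higher and 1 lower, where 9.95% of all tested transcripts were called. The median log2 fold change of the 5 was -0.18, against -0.028 over all transcripts, and with BIRC3 it was 0.46. From these same libraries, the paper lists NFKBIA, IL1B and CD69 among dex-regulated genes that depend on G9a, GLP and HP1γ. The shares of members called, here and in the comparisons below, are therefore no test of enrichment.

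NFKBIA had 155, 142 and 142 normalized CPM in the ethanol replicates 1, 2 and 3 and 313, 312 and 309 in the dex replicates. All 3 dex libraries were above all ethanol libraries, and their spread was small against the gap. On the log2 scale the rise was 1.09 (standard error 0.07, adjusted p = 1.1e-10), and the change was 2.02- to 2.19-fold in the 3 replicates. NFKBIE encodes IκBε, another inhibitor of the family, and stood at 48.3, 47.6 and 44.2 normalized CPM in ethanol and at 42.3, 39.8 and 41.7 in dex. Its dex libraries were the lower in each replicate, but the log2 difference of -0.18 did not pass (standard error 0.09, adjusted p = 0.258). RELB encodes the subunit that pairs with p52 in the noncanonical pathway. Its levels were 27.8, 23.0 and 25.9 normalized CPM in ethanol and 22.8, 19.6 and 17.4 in dex. The groups did not overlap, and the log2 difference was -0.37 (standard error 0.12, adjusted p = 0.0549). In a fit of the shNS libraries alone it was called (log2 -0.35, adjusted p = 0.00411). That fit called 2186 transcripts in all, where the main fit called 1012.

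IL1B encodes interleukin-1β, a secreted cytokine that activates NF-κB in other cells. Its levels were 16.7, 10.0 and 9.25 normalized CPM in ethanol and 4.23, 3.44 and 2.74 in dex, so that the groups did not overlap. The fall was -1.78 on the log2 scale (standard error 0.21, adjusted p = 1.66e-06), and the dex level was 0.253 to 0.343 times the ethanol level of the same replicate. CD69, an early activation antigen of lymphocytes, had 10.5, 7.63 and 8.15 normalized CPM in ethanol and 33.4, 30.4 and 27.4 in dex. The dex libraries were 3.18 to 3.98 times the ethanol library of the same replicate, a rise of 1.80 on the log2 scale (standard error 0.21, adjusted p = 1.43e-06). BIRC3 encodes cIAP2, a ubiquitin ligase and inhibitor of apoptosis in the pathway downstream of tumor necrosis factor receptors. Only few reads fell on its NM_001165, namely 1, 1 and 3 in ethanol and 16, 8 and 11 in dex. Over the 3 libraries these were 5 and 35 reads, a normalized ratio of 6.86 with an exact 95% interval of 2.67 to 22.4 for counting error alone. The fitted rise of 2.70 on the log2 scale (standard error 0.65, adjusted p = 0.0074) rests on those few reads. BIRC3 passed the filter through 3 libraries, replicate 1 of dex-treated shNS, shG9a and shGLP cells, so it could enter the test only as a gene high in dex. Without ethanol replicate 1 its change was 2.06 and no longer called (adjusted p = 0.111).

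**Figure D2:**
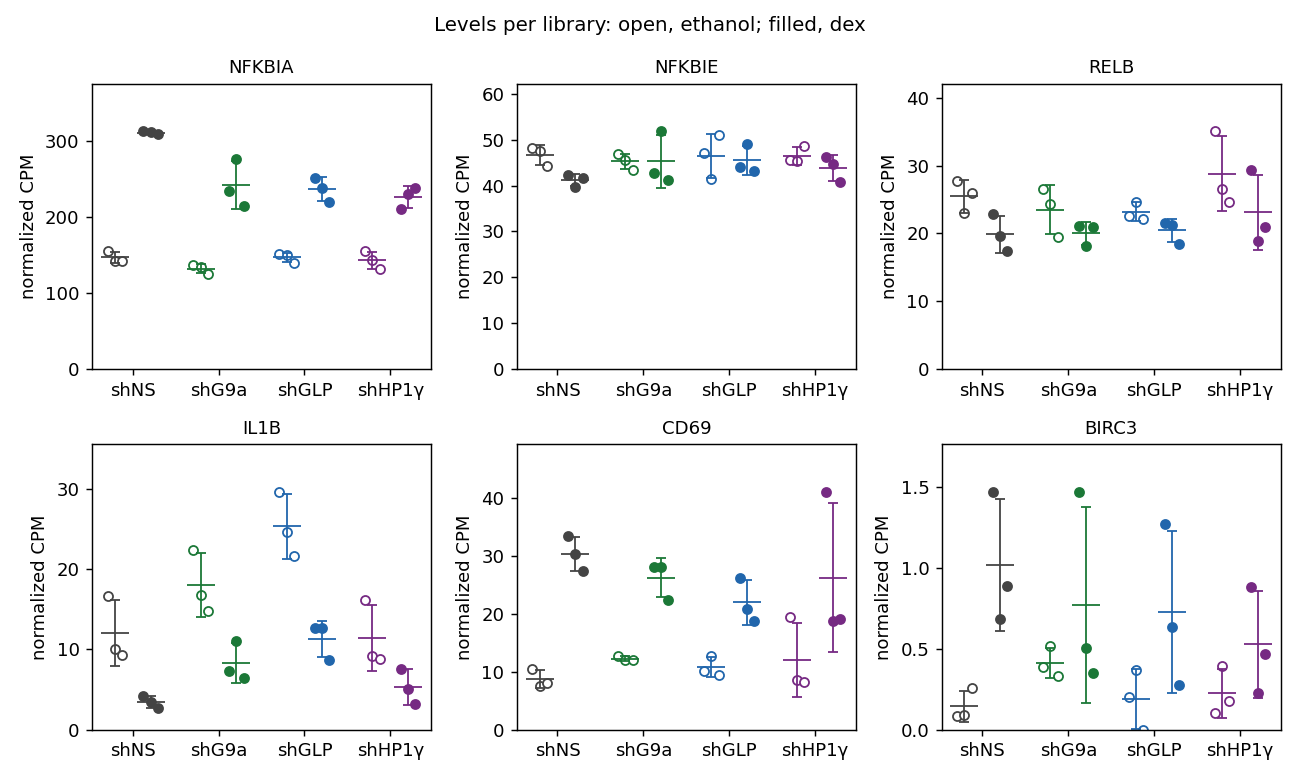
Normalized CPM of the 6 tested members in every library, with open circles for ethanol and filled circles for dex, and the 3 circles of a condition in replicate order. Horizontal bars are means and error bars SD (n = 3); NFKBIA in dex-treated shNS cells, at 309 to 313, lies above all other libraries, and IL1B has its lowest mean, 3.47, there.

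The same hormone effect was then measured in the depleted cells. NFKBIA and CD69 rose and IL1B fell in all 3 depletions, each by less than in shNS cells as the values stand. In each depletion 3 of the 6 members were called, 2 higher and 1 lower, where 6.24% of all tested transcripts were called in shG9a cells, 3.29% in shGLP cells and 3.22% in shHP1γ cells. BIRC3, RELB and NFKBIE passed in none of them.

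In shG9a cells NFKBIA went from 137, 134 and 125 normalized CPM in ethanol to 234, 276 and 215 in dex, which is 0.88 on the log2 scale (standard error 0.07, adjusted p = 1.53e-08). In shGLP cells the levels were 151, 150 and 140 in ethanol and 252, 238 and 220 in dex, a change of 0.69 (standard error 0.07, adjusted p = 6.81e-07). In shHP1γ cells they were 155, 143 and 132 in ethanol and 210, 230 and 238 in dex, a change of 0.66 (standard error 0.07, adjusted p = 1.22e-06). In every depletion the dex libraries lay above the ethanol libraries, and none of them reached the lowest shNS dex library at 309. By replicate, the rise was 1.71- to 2.07-fold in shG9a, 1.57- to 1.67-fold in shGLP and 1.36- to 1.8-fold in shHP1γ cells.

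IL1B fell in shG9a cells from 22.4, 16.8 and 14.8 to 7.34, 11.1 and 6.46 normalized CPM (log2 -1.09, standard error 0.18, adjusted p = 0.000301). In shGLP cells it fell from 29.6, 24.6 and 21.6 to 12.6, 12.6 and 8.66 (log2 -1.17, standard error 0.17, adjusted p = 9.57e-05). In shHP1γ cells it fell from 16.1, 9.21 and 8.81 to 7.61, 5.07 and 3.2 (log2 -1.11, standard error 0.20, adjusted p = 0.0011). The ethanol and dex libraries did not overlap in any of them. Without the replicate block, the fall in shHP1γ cells was not called (adjusted p = 0.082). Without replicate 3 in any condition, the adjusted p was 0.0666 in shG9a, 0.0708 in shGLP and 0.167 in shHP1γ cells. Over all transcripts, leaving out replicate 3 cut the calls from 634 to 156, from 334 to 86 and from 327 to 98.

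CD69 rose in shG9a cells from 12.7, 12.0 and 12.1 to 28.2, 28.2 and 22.4 normalized CPM (log2 1.09, standard error 0.20, adjusted p = 0.00127). In shGLP cells it rose from 10.2, 12.7 and 9.45 to 26.3, 20.9 and 18.8 (log2 1.01, standard error 0.21, adjusted p = 0.00577). In shHP1γ cells it rose from 19.5, 8.52 and 8.28 to 41.1, 18.7 and 19.1 (log2 1.12, standard error 0.20, adjusted p = 0.00143). Replicate 1 of the shHP1γ cells was the highest of its group in both treatments, and its ethanol library exceeded both other dex libraries of that depletion. Within that replicate the rise was 2.11-fold, and it was 2.2- and 2.31-fold in the others. Leaving out that replicate's ethanol or dex library gave log2 1.48 or 0.80, both called. Without replicate 3 the rise was not called in any depletion (adjusted p = 0.0686, 0.241 and 0.144 in shG9a, shGLP and shHP1γ cells). In shGLP cells it was also not called without the replicate block (adjusted p = 0.0789) or without ethanol replicate 1 (adjusted p = 0.0775). Over all transcripts these fits called 147 and 205, where the main fit called 334.

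The members that were not called had small or poorly counted differences. NFKBIE differed by 0.00, -0.03 and -0.09 on the log2 scale in shG9a, shGLP and shHP1γ cells, each with a standard error of 0.09. RELB differed by -0.23, -0.18 and -0.32, each with a standard error of 0.12. RELB in shHP1γ cells was called in a fit of those libraries alone (adjusted p = 0.0213). That fit called 1075 transcripts in all, where the main fit called 327. For BIRC3 the reads summed over 3 libraries were 14 in ethanol and 28 in dex in shG9a cells, 6 and 22 in shGLP cells, and 7 and 18 in shHP1γ cells. The normalized ratios were 1.84 (95% interval 0.937 to 3.78), 3.66 (1.44 to 11) and 2.27 (0.906 to 6.44). These intervals cover counting error alone and leave out the spread between replicates. By replicate the change was 0.975- to 3.77-fold in shG9a and 0.573- to 8.61-fold in shHP1γ cells. In shGLP cells it was 1.71- and 6.19-fold in the 2 replicates with ethanol reads, and edgeR did not call it (adjusted p = 0.19). BIRC3 entered the test through dex-treated libraries, those of shG9a and shGLP cells among them.

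**Figure D3:**
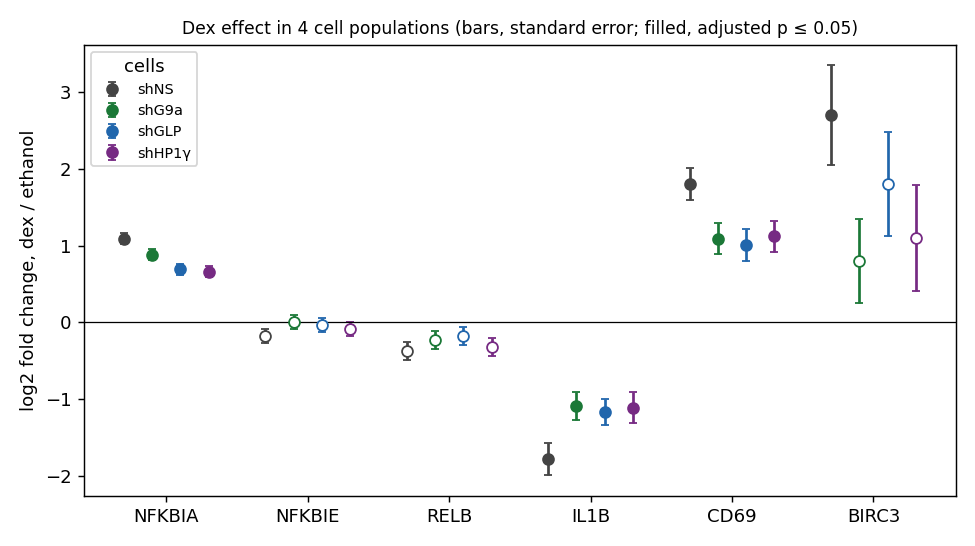
Log2 fold change of dex against ethanol for the 6 tested members in shNS, shG9a, shGLP and shHP1γ cells, with standard errors from edgeR and filled points where the adjusted p was at most 0.05. NFKBIA ranges from 0.66 to 1.09 and CD69 from 1.01 to 1.80 above 0, and IL1B from -1.78 to -1.09 below it.

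In dex-treated cells, the depleted cells were compared with shNS cells. All 3 of these comparisons use the same shNS dex libraries, so their values are given side by side and do not support each other. NFKBIA was lower in all 3, and IL1B was higher in shG9a and shGLP cells. Of the 6 members, 2 were called in shG9a cells (1 higher, 1 lower), where 8.8% of all tested transcripts were called. In shGLP cells 2 were called (1 higher, 1 lower), where 5.77% of all were. In shHP1γ cells 1 was called, lower, where 4.09% of all were.

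The log2 difference of NFKBIA was -0.36 in shG9a (adjusted p = 0.00165), -0.40 in shGLP (adjusted p = 0.000611) and -0.46 in shHP1γ cells (adjusted p = 0.000214), each with a standard error of 0.07. Mean levels were 242 ± 31.2, 237 ± 16.2 and 226 ± 14.5 normalized CPM against 311 ± 2.12 in shNS cells (SD, n = 3), or 77.8%, 76.1% and 72.6%. No depleted library reached an shNS library. Without replicate 3 in any condition, NFKBIA was called in shHP1γ cells but not in shG9a cells (-0.29, adjusted p = 0.119) or shGLP cells (-0.35, adjusted p = 0.0672). Over all transcripts, the calls then fell from 895 to 166 for shG9a, from 587 to 165 for shGLP and from 416 to 63 for shHP1γ. In a fit of the shG9a and shNS dex libraries alone, the NFKBIA difference was -0.37 (adjusted p = 0.0628). That fit called 170 transcripts in all, where the main fit called 895. Without shG9a dex replicate 2 the NFKBIA difference was -0.47 (adjusted p = 5.32e-05).

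IL1B averaged 8.31 ± 2.48 normalized CPM in shG9a cells and 11.3 ± 2.28 in shGLP cells, against 3.47 ± 0.743 in shNS cells (SD, n = 3). The differences were 1.29 (standard error 0.21, adjusted p = 0.000372) and 1.71 (standard error 0.21, adjusted p = 8.43e-06) on the log2 scale, and neither group overlapped with shNS. Without shG9a dex replicate 2, its highest library, the difference in shG9a cells was 0.97 and still called (adjusted p = 0.00517). In shHP1γ cells the mean was 5.29 ± 2.21, higher in 3 of 3 replicates but overlapping with shNS, and the log2 difference of 0.59 did not pass (standard error 0.23, adjusted p = 0.174). Whether the shHP1γ difference is smaller than the others was not tested. The paper lists IL1B as dependent on HP1γ as well as on G9a and GLP, and the HP1γ part was not reproduced here.

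CD69 averaged 26.3 ± 3.33, 22.0 ± 3.89 and 26.3 ± 12.8 normalized CPM in shG9a, shGLP and shHP1γ cells against 30.4 ± 2.96 in shNS cells (SD, n = 3). None of these passed, and the nearest was shGLP at log2 -0.48 (standard error 0.19, adjusted p = 0.177), whose libraries lay below all shNS libraries. That difference was called without the filter on low counts (adjusted p = 0.0044), in a fit of those 2 groups alone (adjusted p = 0.000279) and without replicate 1 (adjusted p = 0.0172). Over all transcripts these fits called 561, 1176 and 486, where the main fit called 587. In shHP1γ cells, CD69 was called lower once replicate 1 was left out of all conditions (log2 -0.61, adjusted p = 0.00884). The paper lists CD69 as dependent on G9a, GLP and HP1γ, which the main fit here did not reproduce. It removed unwanted variation between samples, where the replicate number was fitted here, and the source of the difference was not tested. BIRC3 differed by -0.44, -0.52 and -0.98 in shG9a, shGLP and shHP1γ cells with standard errors of 0.46 to 0.50 on 18 to 35 reads per group, and none passed. NFKBIE and RELB differed by at most 0.20 on the log2 scale.

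**Figure D4:**
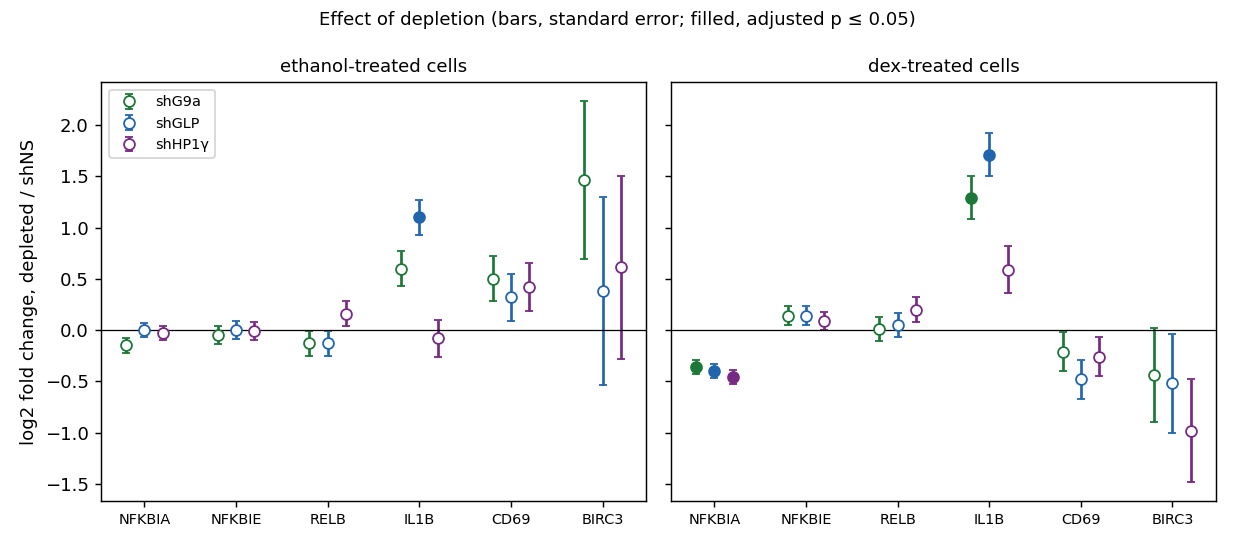
Log2 fold change of each depletion against shNS for the 6 tested members, in ethanol-treated cells on the left and dex-treated cells on the right, with standard errors from edgeR and filled points where the adjusted p was at most 0.05. In dex NFKBIA lies at -0.36 to -0.46 in all depletions, and IL1B is the member highest above 0; in ethanol the single filled point is IL1B in shGLP cells at 1.10.

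Without hormone, the same comparison asks what depletion alone did. IL1B was higher in shGLP cells, and no other member passed in any depletion. In shGLP cells 1 of 6 members was called, where 3.61% of all tested transcripts were. In shG9a cells 0 of 6 were called by edgeR, where 3.73% of all were, with 3 at an unadjusted p under 0.05 (IL1B, CD69 and NFKBIA) and 1 called by DESeq2 (IL1B). In shHP1γ cells 0 of 6 were called by edgeR, where 2.91% of all were, with 0 at an unadjusted p under 0.05 and 0 called by DESeq2.

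IL1B in ethanol averaged 25.3 ± 4.04 normalized CPM in shGLP cells against 12.0 ± 4.12 in shNS cells (SD, n = 3), and the lowest shGLP library, at 21.6, was above the highest shNS library, at 16.7. The log2 difference was 1.10 (standard error 0.17, adjusted p = 0.000193), and it was 1.03 and not called without replicate 3 (adjusted p = 0.0729). Over all transcripts, leaving out replicate 3 cut the calls for shGLP in ethanol from 367 to 98. In shG9a cells the mean was 18.0 ± 3.95, higher in 3 of 3 replicates, and the difference of 0.60 just missed (standard error 0.17, adjusted p = 0.0536). It was called in 6 of the alternatives, among them a fit of those 2 groups alone (adjusted p = 0.000422). That fit called 885 transcripts in all, where the main fit called 379. In shHP1γ cells the mean was 11.4 ± 4.11 and the difference -0.08 (standard error 0.18). NFKBIA differed by -0.15, 0.00 and -0.03 in shG9a, shGLP and shHP1γ cells, each with a standard error of 0.07. CD69 differed by 0.50, 0.32 and 0.42, with standard errors of 0.22 to 0.23. In shHP1γ cells the CD69 difference was 0.07 without ethanol replicate 1.

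A marker of another cell type was high in the same shGLP libraries as IL1B, in both treatments. LYZ, which encodes the lysozyme of myeloid cells, had 19.4 to 31.2 normalized CPM in the 6 shGLP libraries, 4.32 to 7.7 in shG9a, 2.35 to 10.5 in shHP1γ and 1.61 to 5.64 in shNS libraries. MPO stood at 0.74 to 3.78 normalized CPM in shGLP and 0.184 to 2.08 in shNS libraries. It was 0.173 to 1.29 in shG9a and 0.47 to 1.23 in shHP1γ libraries, so unlike LYZ its ranges overlapped. CD14 was at most 0.303, and CSF1R and ITGAM were at 0 in all 24 libraries, but these 3 genes have several identifiers, and as for CD79B and CD22 a count of 0 cannot be read as a low level. The 5 myeloid markers together summed to 20.4 to 34.0 normalized CPM in shGLP, 4.49 to 8.58 in shG9a, 2.82 to 11.7 in shHP1γ and 2.74 to 7.81 in shNS libraries. Most of the sum in shGLP libraries was LYZ, with medians of 23.3 for LYZ and 26.7 for the sum, so it adds little to that gene. The B-lineage marker VPREB3 stood at 297 to 434 normalized CPM in shGLP and 171 to 310 in shNS libraries. The part of these transcripts in the IL1B difference was not tested.

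The interaction of dex with each depletion asks directly whether the hormone effect differed from that in shNS cells. By edgeR 0 of 6 members were called in any of the 3, where 0.0885% of all tested transcripts were called with shG9a, 0.118% with shGLP and 0.0197% with shHP1γ. At an unadjusted p under 0.05 (edgeR) there were 3 members with each depletion, IL1B, CD69 and NFKBIA. BIRC3 was also under 0.05 with shG9a, but it entered the test only through dex-treated libraries, so it is kept apart. DESeq2 called 0, 0 and 1, the last being NFKBIA with shHP1γ (log2 -0.45, adjusted p = 0.0488). For that interaction DESeq2 called 18 transcripts in all and edgeR 2.

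For NFKBIA the interaction was -0.21 with shG9a, -0.40 with shGLP and -0.43 with shHP1γ on the log2 scale, each with a standard error of 0.10 (adjusted p = 0.73, 0.284 and 0.195). The dex effect was the smaller in 3 of 3 replicates in each. For CD69 the values were -0.71, -0.80 and -0.69 (standard errors 0.29, 0.30 and 0.29, adjusted p = 0.645, 0.966 and 1). For IL1B they were 0.69, 0.61 and 0.67 (standard errors 0.28, 0.27 and 0.29, adjusted p = 0.644, 1 and 1), and for both genes all 3 replicates had the same sign. In a fit of the shGLP and shNS libraries alone, NFKBIA (adjusted p = 0.00022) and CD69 (adjusted p = 0.0116) were called. That fit called 107 transcripts in all for this interaction, where the main fit called 12. For NFKBIE and RELB no interaction exceeded 0.18. These comparisons share the shNS libraries of both treatments.

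Over the 8 conditions, NFKBIA was highest in dex-treated shNS cells, followed by dex-treated shG9a, shGLP and shHP1γ cells, which overlapped with their neighbours in that order, and then by the 4 ethanol conditions at means of 132 to 147 normalized CPM, which overlapped too. The gaps without overlap were above dex-treated shG9a and below dex-treated shHP1γ cells. For CD69 the 4 dex means were above the 4 ethanol means, but replicate 1 of ethanol-treated shHP1γ cells, at 19.5 normalized CPM, lay above the lowest libraries of dex-treated shGLP and shHP1γ cells, at 18.8 and 18.7. IL1B ran from 25.3 in ethanol-treated shGLP to 3.47 in dex-treated shNS cells with every neighbour overlapping. BIRC3, RELB and NFKBIE had no gap, and NFKBIE stayed between means of 41.3 and 46.7 normalized CPM.

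By Pearson correlation of log2 levels over the 8 condition means, among 5604 transcripts whose average was at least 5 CPM, the transcripts most like NFKBIA were C1orf186 (r = 0.996), ZC3H12D (0.995), MCAM (0.991), AHDC1 (0.989) and KIF26A (0.987). ZC3H12D, which encodes an RNA-binding protein of the regnase family, averaged 85.5 normalized CPM in ethanol and 217 in dex in shNS cells, and 147, 150 and 153 in dex-treated shG9a, shGLP and shHP1γ cells. C1orf186 had 133 in dex-treated shNS cells and 64.1 to 71.5 in the depleted ones. The transcripts most like IL1B were NMI (0.991), MAPK1IP1L (0.984), SHANK1 (0.984), PRPF19 (0.983) and ESAM (0.98), whose levels spanned narrower ranges than IL1B, such as 122 to 149 normalized CPM for NMI. The 8 means come from the same 24 libraries, so these are descriptions.

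Other genes of the pathway were taken from a list of 56 further genes, made of subunits, IκB proteins, kinases, adaptors and receptors, negative regulators and targets. TNF, LTA and IER3 of the list are not analysed here. Only 16 genes were tested, in 17 transcripts: 8 of the 13 with a single identifier and 8 of the 40 with several. In shNS cells dex changed 3 of the 17 transcripts, 2 higher and 1 lower, or 17.6% against 9.95% of all tested transcripts, with a median log2 fold change of 0.04 against -0.028. BIRC2, which encodes the related ligase cIAP1, rose by 0.84 on the log2 scale (standard error 0.19, adjusted p = 0.00513). TNFRSF13C, the BAFF receptor of B cells, rose by 0.49 (standard error 0.10, adjusted p = 0.00158), from 63.9 ± 4.88 to 89.5 ± 3.28 normalized CPM (SD, n = 3). NFKBIB, which encodes IκBβ and was counted on the noncoding identifier NR_040515, changed by -0.31 (standard error 0.10, adjusted p = 0.0396).

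In depleted cells dex raised TNFRSF13C in shG9a cells (log2 0.50, adjusted p = 0.00305) and lowered NFKBIB in shGLP cells (log2 -0.44, adjusted p = 0.0099), 1 of 17 transcripts each. This is 5.88%, where 6.24% of all transcripts were called in shG9a and 3.29% in shGLP cells. By edgeR 0 of 17 were called in shHP1γ cells, where 3.22% of all were, with 2 at an unadjusted p under 0.05 and 1 called by DESeq2. In dex, shG9a cells had lower BIRC2 (log2 -0.63, adjusted p = 0.0364) and ICAM1, an adhesion molecule (log2 -0.29, adjusted p = 0.0313), than shNS cells, which is 11.8% of the 17 transcripts where 8.8% of all were called. BIRC2 averaged 2.47 ± 0.609 normalized CPM in the first and 3.88 ± 0.383 in the second (SD, n = 3). No transcript of the list was called for shGLP or shHP1γ in dex, for any depletion in ethanol or for any interaction by edgeR, with 1 to 5 of 17 at an unadjusted p under 0.05 and 0 or 1 called by DESeq2. Of all transcripts, 5.77% and 4.09% were called for shGLP and shHP1γ in dex. In ethanol 3.73%, 3.61% and 2.91% were called for shG9a, shGLP and shHP1γ, and for the interactions at most 0.118%. At such shares, 0 calls among 17 transcripts is no result about the pathway. The kinase TBK1, the adaptors TAB3 and TRAF2 and the deubiquitinase OTULIN, with means of 1144 to 2123 counts per library, were called in none of the 13 comparisons. They were named after their values were seen, and per comparison 0.0197% to 9.95% of all transcripts were called. OTULIN came near the limit in shHP1γ cells, at log2 -0.20 in ethanol (adjusted p = 0.0584, edgeR) and -0.18 in dex (adjusted p = 0.0837).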

How the data were processed

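Paired-end reads of 75 bp were, per the paper's methods, trimmed, mapped with HISAT2 to hg19 (GRCh37) and counted on RefSeq identifiers with GenomicAlignments. The authors deposited the table as raw counts, although it is named for CPM. The counting mode, strand and RefSeq release are not given in the sources used here. A second table of the authors' fold changes and adjusted p values was used for gene symbols alone.

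Tests were run with edgeR 4.0.16 under R 4.3.3. Identifiers with more than 1 CPM in at least 2 libraries (10167) were kept, scaled by upper quartile factors and fitted over all 24 libraries with the 8 conditions and the replicate number, then tested by the quasi-likelihood F test. Standard errors are the log2 fold change over the root of F. Normalized CPM use the scaled library sizes. Replicates were made on different days per the labels. Libraries with the same number had correlated deviations in 70 of 84 pairs of libraries (r above 0.1, median 0.21). Alternatives were TMM, DESeq2 1.42.0, other filters, no replicate block, fewer groups, counts summed per gene and libraries left out. Intervals cover counting error only. The model was checked on simulated data. Named genes are the 10 members, at most 4 called transcripts of the pathway list per comparison and the 5 transcripts most like NFKBIA and IL1B. TAB3, TBK1, TRAF2 and OTULIN were named after their values were seen. The members and lists were chosen with earlier results of these data known.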

Additional observations from a re-analysis of the deposited data

Results flagged for a closer look

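CD69 in shG9a cells and IL1B in shHP1γ cells were flagged because all 3 replicates moved one way in ethanol and the other way in dex, relative to shNS cells of the same replicate. Every tested member was searched in each depletion. How many of all transcripts meet this rule was not counted, so it cannot be said whether such a pattern is unusual. BIRC3 in shG9a cells moved in the same manner on few reads, but its dex replicate 1 stood at a rounded 1.47 normalized CPM in both groups. The log2 ratio of mean levels was 0.49 in ethanol and -0.21 in dex for CD69 in shG9a cells. The interaction of dex with shG9a, -0.71, did not pass for CD69 (adjusted p = 0.645, edgeR). For IL1B in shHP1γ cells the log2 ratio of means was -0.08 in ethanol and 0.61 in dex, and its libraries overlapped with shNS in both treatments. The interaction of dex with shHP1γ, 0.67, did not pass for IL1B (adjusted p = 1, edgeR).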

How the results depend on the processing

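The 19 called differences of single members kept their direction in all 301 refits, and 9 of them kept their call in every refit; 14 refits ended a call. Of the 59 differences not called, 9 were called in at least 1 of their refits. Leaving out replicates or single libraries gave 1 to 3 members called for dex in shG9a, shGLP and shHP1γ cells, 3 to 4 for dex in shNS cells, 1 to 2 for shG9a in dex, 1 to 3 for shGLP in dex, 1 to 2 for shHP1γ in dex, 0 to 2 for shG9a in ethanol and 0 to 1 for shGLP in ethanol. The lowest values came without replicate 3, where NFKBIA alone kept its call for dex in the depleted cells and IL1B alone for shG9a and shGLP in dex. Over all transcripts, the calls for dex in shG9a, shGLP and shHP1γ cells then fell from 634, 334 and 327 to 156, 86 and 98. Those for shG9a and shGLP in dex fell from 895 and 587 to 166 and 165. For dex in shNS cells the 3 came where BIRC3 lost its call or was not tested. In a fit of the compared groups alone, 1 member was called for shG9a in dex, 3 for shGLP in dex (CD69 added), 2 for shG9a in ethanol, 2 for the interaction of dex with shGLP, 4 for dex in shHP1γ cells (RELB added) and 4 for dex in shNS cells (RELB added, BIRC3 not tested). Over all transcripts those fits called 170, 1176, 885, 107, 1075 and 2186, in that order. The main fit called 895, 587, 379, 12, 327 and 1012. For shG9a in ethanol, 1 (IL1B) was called without the filter on low counts, with a mean of at least 5 CPM, with counts summed per gene and with DESeq2. Over the whole table these fits called 318, 448, 346 and 434, where the main fit called 379. DESeq2 called 1 member for the interaction with shHP1γ, and 18 transcripts in all where edgeR called 2. Without the replicate block, 2 members in place of 3 were called for dex in shGLP and in shHP1γ cells, and no other count of members changed. Over all transcripts the calls in these cells fell from 334 to 147 and from 327 to 159. BIRC3 could not be tested at a mean of at least 5 CPM, without replicate 1 or, except for shG9a and shGLP in dex and their interactions, in fits of the compared groups alone. BIRC3 had at most 17 reads per library, which limits its precision. The cause of these changes was not tested.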
